A study of Homo sapiens with 24 samples.

Results

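The integrated stress response (ISR) was followed through 10 genes of the ATF4 pathway: ATF4, ATF3, DDIT3, DDIT4, TRIB3, ASNS, CHAC1, PPP1R15A, PSAT1 and PHGDH. They were chosen by symbol as a set of known pathway genes, out of 37967 genes in the tables. Of these, 9 were read from the count table and TRIB3 from a second table of length-scaled counts, because the first table ends before it in the alphabet. All 10 had counts in all 24 samples. The samples came from HCT116, an established human colorectal carcinoma line, and from HCT116 oxpl-R, a derivative selected for resistance by repeated short pulses of oxaliplatin. Both lines carried a doxycycline-inducible (Tet-On) adenovirus E1A transgene in every sample, controls included. In each line, 3 samples were left untreated (control), 3 received 0.5 µg/mL doxycycline (E1A), 3 received 25 µM oxaliplatin for 24 h, and 3 received doxycycline 3 h ahead of oxaliplatin (E1A + oxaliplatin). The labels number the 3 samples of a group as biological replicates. HCT116 oxpl-R is a single derived line, so resistance cannot be told apart from any other difference between the lines, and E1A cannot be told apart from doxycycline itself.

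In the ISR, kinases that sense different stresses phosphorylate the initiation factor eIF2. General translation then falls, while the mRNA of the transcription factor ATF4 is translated more, so that the response runs largely through protein and is not read directly from ATF4 mRNA. ATF4 is known to activate genes for amino acid synthesis, amino acid uptake and aminoacyl-tRNA charging, together with further transcription factors and inhibitors that shape or end the response. Oxaliplatin is a platinum drug that forms DNA adducts and is also known for stressing the nucleolus.

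Normalized levels are given as CPM (counts scaled to a fixed library total) after trimmed-mean (TMM) scaling, and log2 fold changes (log2FC) come from a single edgeR quasi-likelihood fit over all 24 samples. A gene was called when its Benjamini-Hochberg adjusted p-value, over all genes tested in that comparison, was below 0.05. The shares of genes called, given beside the counts, are over all genes with any count. Of the 19452 in the count table, 11097 had at least 10 counts on average, as all members had. The share among genes with such counts is not given here and may be higher. All shares belong to the main fit and not to the alternatives. They are shares at an adjusted p below 0.05. No share of all genes is given at an unadjusted p below 0.05, so counts at that threshold cannot be set beside them. Comparisons of oxaliplatin, of E1A and of the lines share their untreated samples. Where samples of 2 groups are said not to overlap, this describes the same values as the test and adds no evidence to it. The share of all genes without overlap is not given here. Totals of the count table ranged from 24838095 to 37927720 per sample. HCT116 oxaliplatin replicate 3 and HCT116 E1A + oxaliplatin replicate 1 stood apart: they resembled each other (r = 0.9846 on log2(CPM + 1)) more than any sample of their own groups (at most 0.9705), so the fits that use them were repeated without both, and the main values of the members are given both ways. In HCT116 oxpl-R, the highest r within the E1A group (0.9796) also lay below its highest r with another group (0.9900). The same held for the oxaliplatin group of HCT116 oxpl-R (0.9733 against 0.9848). Samples of these groups were left out only 1 at a time. Summed epithelial markers (9 of 10 listed were measured) stood at 5438 to 16840 CPM, against 15.1 to 55.1 CPM for 9 markers of immune, stromal and endothelial cells, of which 7, including PTPRC and CD3E, were at 0 in some samples. The transgene itself was not analysed here. Of 20 targets of E2F, the factors that E1A is known to release, 0 were called after doxycycline alone in either line, with 1 in HCT116 and 3 in HCT116 oxpl-R at an unadjusted p below 0.05 and 0 by DESeq2 and by limma. Of all genes tested, 0.432% and 0.226% were called there. The log2FC was above 0 for 12 of the 20 in HCT116 (median 0.14) and for 20 in HCT116 oxpl-R (median 0.21). When doxycycline was added to oxaliplatin, 16 of the 20 were higher in HCT116 oxpl-R, beside 1.39% of genes called. In HCT116, where 0.0874% of genes were called, 0 of the 20 were called by edgeR, DESeq2 or limma and 3 had an unadjusted p below 0.05. The log2FC was above 0 for 20 of the 20 in HCT116 oxpl-R (median 1.27) and for 19 in HCT116 (median 0.16). In such bulk samples, fewer cells of a type and less RNA per cell cannot be told apart.

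Short stretches of promoter sequence are shown because ATF4 is known to bind composite elements named CARE, and ATF/CREB proteins to bind the CRE element. The letters TGATGNAA stood for CARE and TGACGTCA for CRE, both strands were searched over the 250 bases before each RefSeq start (GRCh38.p14), and no stretch can match both. All 10 members matched a RefSeq promoter. A CARE match was found in 1 promoter window each of ASNS, CHAC1 and ATF3, and a CRE match in that of PPP1R15A. Over all 35116 promoter windows, 3.14% held CARE and 1.65% held CRE. Each stretch below has 60 bases, is written 5′ to 3′ on the strand of the gene, and has the match in capitals.
ASNS, chr7:97872443-97872502 (minus strand), match 68 to 61 bases before the start: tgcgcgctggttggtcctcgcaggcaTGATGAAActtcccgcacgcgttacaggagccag
CHAC1, chr15:40953236-40953295 (plus strand), match on the other strand, 209 to 202 bases before the start: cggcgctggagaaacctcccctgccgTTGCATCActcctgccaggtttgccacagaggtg
ATF3, chr1:212565190-212565249 (plus strand), match 191 to 184 bases before the upstream one of its starts: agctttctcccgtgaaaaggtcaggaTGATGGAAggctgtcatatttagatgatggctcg
PPP1R15A, chr19:48872337-48872396 (plus strand), match 58 to 51 bases before the start: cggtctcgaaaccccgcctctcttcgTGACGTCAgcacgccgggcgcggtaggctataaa
The windows of ATF4, DDIT3, DDIT4, TRIB3, PSAT1 and PHGDH did not hold these letters. A match describes the letters and is neither a bound site nor a cause of a value below.

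On GRCh38 (GENCODE release 44), exons of DDIT3 (chr12:57516588-57521737, minus strand) overlap those of MARS1 and MBD6 on the other strand and of an unnamed gene on the same strand, and exons of ASNS (chr7:97851677-97872542, minus strand) overlap those of an unnamed gene on the same strand. CHAC1 (chr15:40952962-40956512), PPP1R15A (chr19:48872212-48876059), PSAT1 (chr9:78297125-78330093), PHGDH (chr1:119648411-119744218), DDIT4 (chr10:72273919-72276036) and TRIB3 (chr20:362835-397559) lie on the plus strand, as do ATF4 and ATF3. Whether the counting used strand was not given in the sources used here, so reads of DDIT3 and of its partners on the other strand may not have been told apart, and the overlaps on the same strand leave the levels of DDIT3 and ASNS uncertain whatever the setting. Annotated pseudogenes of ATF4, ASNS and PSAT1 took at most 14 counts in a sample. Per kilobase of the canonical transcript, the mean level in untreated HCT116 cells was highest for ATF4 (720 CPM per kb) and lowest for DDIT3 (8.62 CPM per kb). Between them stood DDIT4 (120 CPM per kb), PSAT1 (107), PHGDH (92.2), ASNS (50.5), TRIB3 (44.1, from the second table), CHAC1 (32.6), PPP1R15A (19.9) and ATF3 (13.7).

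**Figure D1:**
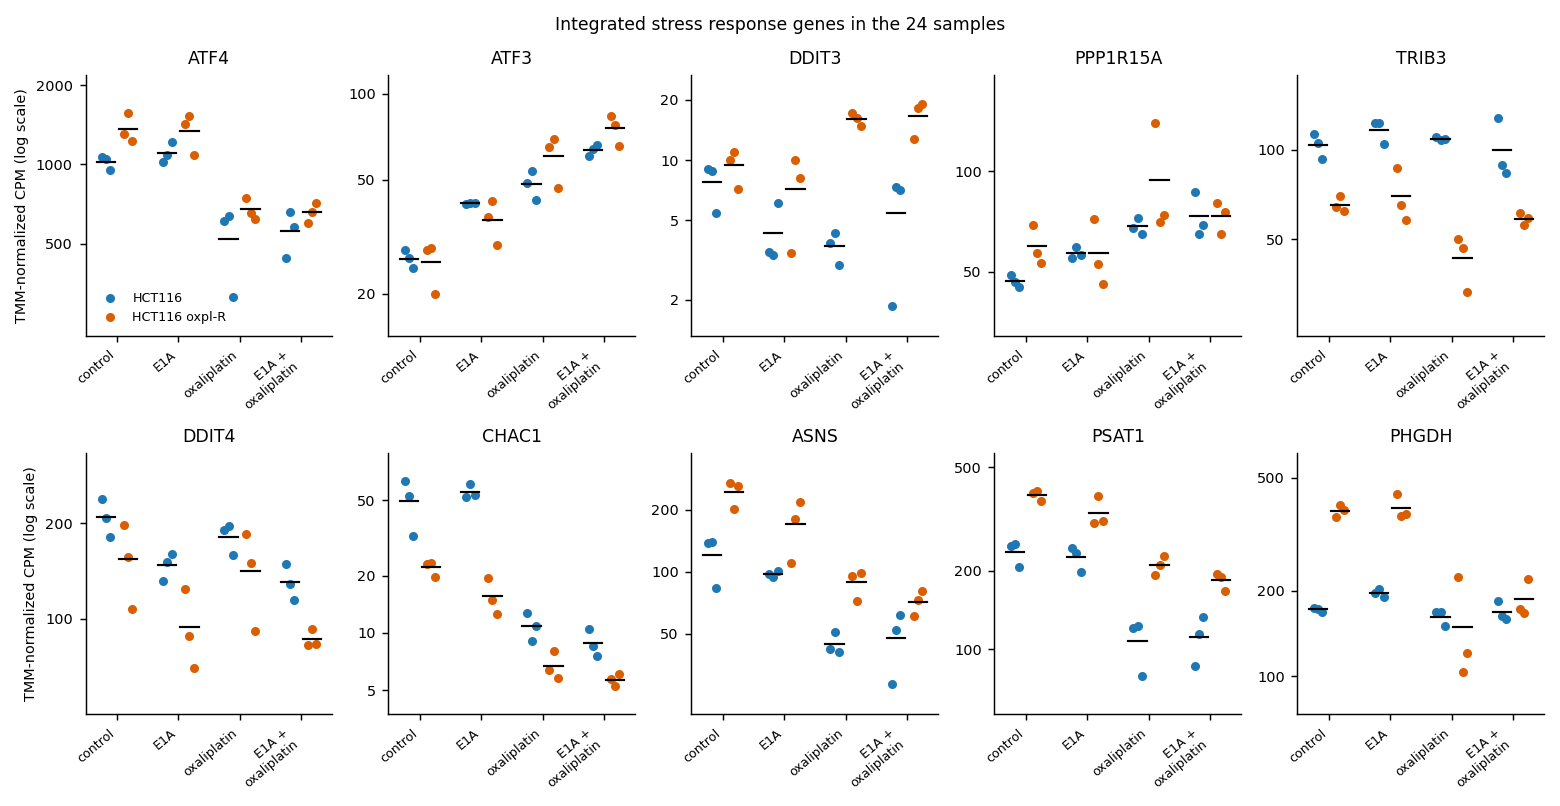
Normalized level (CPM, log axis) of the 10 genes in each of the 24 samples, by treatment, with HCT116 in blue and HCT116 oxpl-R in orange; points are samples and black bars are means of 3. ATF4, CHAC1, ASNS and PSAT1 lie lower and ATF3 higher with oxaliplatin in both lines, while PHGDH responds differently in the lines. For DDIT3 such a difference passed narrowly, and under 9 of 23 alternatives.

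The comparison of oxaliplatin with control asks how the pathway's transcripts stood after 24 h of the drug. In HCT116 cells, ATF4, DDIT3, CHAC1, ASNS and PSAT1 fell and ATF3 rose. Of the 10 genes, 6 were called, beside 17.4% of the 19452 genes tested in the count table. By direction, 1 was higher beside 8.74% of genes and 5 were lower beside 8.61%. The median log2FC of the 10 was -0.59, beside -0.089 over genes with at least 10 counts on average. With RLE or upper quartile scaling the split of 1 higher and 5 lower became 2 and 4, because PPP1R15A was gained and DDIT3 lost. For HCT116 oxpl-R, ATF4, CHAC1, ASNS, PSAT1, PHGDH and TRIB3 fell and ATF3 rose. There 7 of 10 were called, beside 6.11% of genes tested (5.8% in the second table, the source of TRIB3), with 1 higher beside 3.1% and 6 lower beside 3.01%. The median log2FC of the 10 was -0.74, beside 0.01 over genes with at least 10 counts. Under upper quartile scaling that split of 1 higher and 6 lower became 2 and 5.

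Among the transcription factors, ATF4 itself (chr22:39519695-39522683) stood at 1064, 1050 and 952.5 CPM in HCT116 control samples and at 609, 634.5 and 313 CPM after oxaliplatin. The drug-treated samples all lay below the controls, and replicate 3, which stood apart, was the lowest of all 24 samples. The log2FC was -0.98 ± 0.21 (SE, adjusted p = 0.00189), and without both libraries that stood apart it was -0.62 (adjusted p = 0.00804). In HCT116 oxpl-R cells, ATF4 went from 1304, 1567 and 1224 CPM to 747, 656 and 622 CPM, again without overlap. That log2FC was -1.02 ± 0.21 (adjusted p = 0.00208). Across the 8 groups the order of ATF4 fell into a higher block of the 4 groups without oxaliplatin and a lower block of the 4 with it, and neighbours within each block overlapped.

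ATF3 (chr1:212565334-212620777), a stress-induced factor of the same family that can repress transcription, moved the other way. Its levels were 28.3, 26.6 and 24.6 CPM in HCT116 control samples and 48.6, 53.8 and 42.5 CPM after oxaliplatin. In HCT116 oxpl-R cells they were 28.3, 28.9 and 19.9 CPM before and 64.9, 69.5 and 46.8 CPM after. All drug-treated samples exceeded all controls in both lines. The rise was 1.82-fold in HCT116 (log2FC 0.86 ± 0.19, adjusted p = 0.00151) and 2.35-fold in HCT116 oxpl-R (1.23 ± 0.19, adjusted p = 2.51e-05). The highest group mean was that of HCT116 oxpl-R with E1A + oxaliplatin (75.7 CPM), which overlapped with that of HCT116 with E1A + oxaliplatin (63.5 CPM).

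DDIT3 encodes CHOP, a factor tied to apoptosis under lasting stress, and it was the least abundant member per kilobase in untreated HCT116 cells. HCT116 control samples had 9.005, 8.87 and 5.46 CPM (269, 264 and 153 counts), and oxaliplatin samples had 3.84, 4.32 and 3.00 CPM (107, 119 and 95 counts). The treated samples were all lower, with log2FC -1.07 ± 0.37 and an adjusted p of 0.0447, close to the threshold. Leaving out single samples gave log2FC from -1.21 to -0.88 and adjusted p-values from 0.0387 to 0.147, and the call was lost without control replicate 1 or 2 or any of the oxaliplatin replicates. Without both libraries that stood apart the value was -0.84 (adjusted p = 0.0646). In the resistant line the direction was opposite: 10.0, 11.0 and 7.20 CPM in controls against 17.2, 16.2 and 14.8 CPM after oxaliplatin. These samples did not overlap either, but the log2FC of 0.77 ± 0.36 did not pass the test (adjusted p = 0.275). MARS1, whose exons share the locus, had a log2FC of -1.08 in HCT116 and of -0.72 in HCT116 oxpl-R. Whether either value of MARS1 was called is not given here.

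PPP1R15A and TRIB3 encode inhibitors that feed back on the response, the first by directing dephosphorylation of eIF2 and the second by binding ATF4. PPP1R15A stood at 48.8, 46.5 and 45.1 CPM in HCT116 controls and at 67.7, 72.3 and 65.1 CPM after oxaliplatin. Without overlap between the groups, its log2FC was 0.55 ± 0.21 and missed the threshold (adjusted p = 0.0668). It passed under 11 of 17 alternatives, among them DESeq2, RLE scaling, the fit without oxaliplatin replicate 3 (0.63, adjusted p = 0.0408) and the fit without both libraries that stood apart (0.68, adjusted p = 0.0126). PPP1R15A in HCT116 oxpl-R cells was at 69.0, 57.0 and 53.1 CPM in controls and at 139, 70.2 and 74.1 CPM after oxaliplatin. Replicate 1 was far above the other treated samples, and the log2FC of 0.66 ± 0.21 (adjusted p = 0.052) became 0.27 (adjusted p = 0.583) without it. It passed when control replicate 1 (0.79, adjusted p = 0.049), oxaliplatin replicate 2 (0.86, adjusted p = 0.0124) or oxaliplatin replicate 3 (0.81, adjusted p = 0.0179) was left out.

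TRIB3 did not differ beyond its spread in HCT116 cells: 113, 106 and 93.1 CPM in controls and 111, 108 and 108 CPM after oxaliplatin (log2FC 0.07 ± 0.18, 95% interval -0.30 to 0.43, adjusted p = 0.973). In HCT116 oxpl-R cells it went from 64.2, 69.7 and 62.5 CPM to 50.2, 46.7 and 33.3 CPM. The groups did not overlap, and the log2FC of -0.59 ± 0.18 passed narrowly (adjusted p = 0.0459). The call was lost without any 1 of 5 of these 6 samples (all but oxaliplatin replicate 1), with values from -0.63 to -0.43 and adjusted p-values up to 0.246, and under RLE, upper quartile and total-count scaling.

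DDIT4 and CHAC1 act downstream, DDIT4 (REDD1) as an inhibitor of mTORC1 and CHAC1 as an enzyme that degrades glutathione. DDIT4 overlapped between control and oxaliplatin in both lines: 238, 208.5 and 181 CPM against 190, 196 and 158 CPM in HCT116, and 198, 157 and 107 CPM against 184, 150 and 91.4 CPM in HCT116 oxpl-R. Its log2FC was -0.21 ± 0.22 (adjusted p = 0.606) and -0.12 ± 0.22 (adjusted p = 0.941). CHAC1 gave the largest decrease of the 10 genes in both lines. It fell from 63.3, 52.7 and 32.5 CPM to 12.7, 9.04 and 10.9 CPM in HCT116 and from 23.2, 23.3 and 19.8 CPM to 6.38, 8.02 and 5.78 CPM in HCT116 oxpl-R. No treated sample reached the lowest control of its line. The decrease was 4.56-fold (log2FC -2.19 ± 0.23, adjusted p = 1.31e-07) and 3.28-fold (-1.72 ± 0.23, adjusted p = 4.38e-06), and it was called under all 17 alternatives in HCT116 and all 16 in HCT116 oxpl-R. 

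Of the biosynthetic enzymes, ASNS makes asparagine, while PHGDH and PSAT1 catalyse the first steps of serine synthesis. ASNS fell in HCT116 cells from 138.5, 139 and 83.9 CPM to 42.2, 51.02 and 40.99 CPM. In HCT116 oxpl-R cells it fell from 269, 202 and 261 CPM to 95.8, 72.4 and 99.2 CPM. The treated samples lay below all controls of their line, and the log2FC was nearly equal, at -1.43 ± 0.24 (adjusted p = 0.000138) and -1.45 ± 0.24 (adjusted p = 0.000114). PSAT1 followed a like course, from 248, 254 and 207 CPM to 120.5, 122.8 and 79.0 CPM in HCT116 and from 397, 406 and 372 CPM to 193, 211 and 228 CPM in HCT116 oxpl-R. These values did not overlap, with log2FC -1.14 ± 0.18 (adjusted p = 7.46e-05) and -0.89 ± 0.18 (adjusted p = 0.00147).

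PHGDH, in the same pathway as PSAT1, behaved unlike it in HCT116 cells. It stood at 174, 173 and 169 CPM in controls and at 169, 168 and 150.0 CPM after oxaliplatin, which overlapped (log2FC -0.08 ± 0.20, 95% interval -0.48 to 0.32, adjusted p = 0.935). In HCT116 oxpl-R cells it fell from 363.5, 401 and 384 CPM to 224, 103 and 121 CPM. All treated samples were below the controls, replicate 1 least so, and the log2FC was -1.36 ± 0.20 (adjusted p = 1.4e-05), from -1.77 to -1.13 over the alternatives.

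Without both libraries that stood apart, 6 of the 10 genes were again called for oxaliplatin in HCT116, now 2 higher and 4 lower. ATF3 was then 1.05 (adjusted p = 8.81e-05), CHAC1 -2.09 (5.58e-07), ASNS -1.28 (0.000197) and PSAT1 -0.86 (0.00025). TRIB3 (0.11, adjusted p = 0.791), DDIT4 (-0.02, adjusted p = 1) and PHGDH (0.07, adjusted p = 0.982) did not pass.

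**Figure D2:**
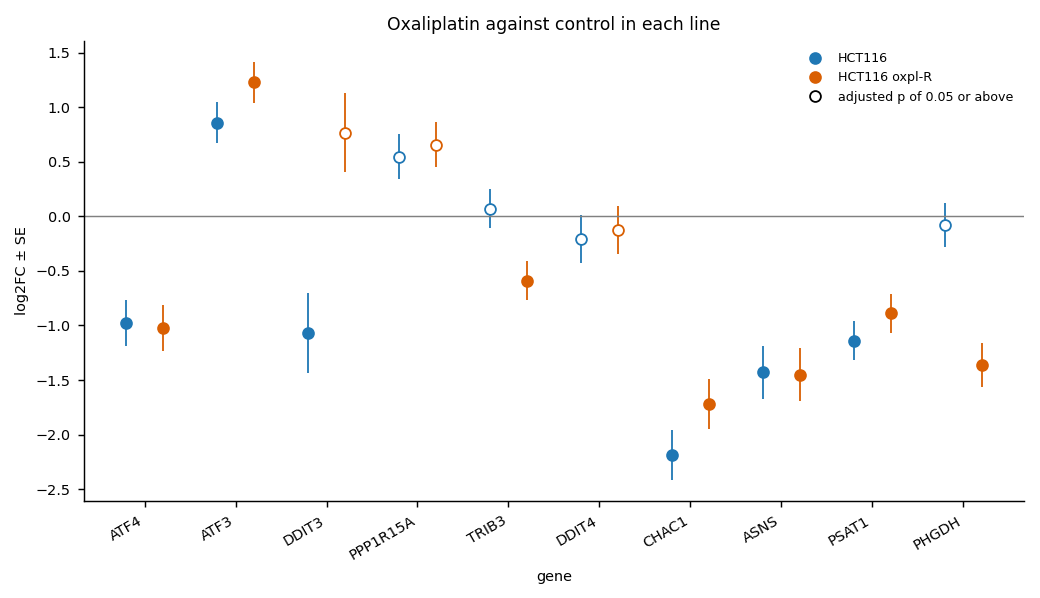
log2FC of oxaliplatin against control (points, with standard errors as bars) for the 10 genes in HCT116 (blue) and HCT116 oxpl-R (orange); filled points passed an adjusted p of 0.05. ASNS has nearly the same value in both lines (-1.43 and -1.45), whereas DDIT3 (-1.07 and 0.77) and PHGDH (-0.08 and -1.36) lie apart.

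Whether the response to oxaliplatin differed between the lines was tested directly with the interaction term. Of the 10 genes, 2 were called, beside 2.78% of genes tested: DDIT3 and PHGDH. For DDIT3 the response in HCT116 oxpl-R exceeded that in HCT116 by 1.84 ± 0.52 on the log2 scale (adjusted p = 0.0484), and leaving out single samples gave values from 1.66 to 1.99 with adjusted p-values from 0.0403 to 0.128. The call was lost without any of these 12 samples other than HCT116 control replicate 3, with values from 1.66 to 1.90. Without both libraries that stood apart it was 1.59 (adjusted p = 0.0186). For PHGDH the response was lower in HCT116 oxpl-R by -1.28 ± 0.28 (adjusted p = 0.00808), and it was called under all 23 alternatives, with -1.46 (adjusted p = 0.00058) without both libraries. TRIB3 (-0.66 ± 0.25, adjusted p = 0.164) and CHAC1 (0.47 ± 0.32, adjusted p = 0.513) did not pass, nor did they without both libraries (-0.70, adjusted p = 0.0531, and 0.36, adjusted p = 0.616). ATF4, ASNS and PSAT1, which fell in both lines, had intervals of the difference from -0.65 to 0.58, from -0.72 to 0.67 and from -0.28 to 0.77, and differences within these intervals remain compatible with the data.

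The lines were then compared under the same treatment. Without treatment, HCT116 oxpl-R had more ASNS, PSAT1 and PHGDH and less CHAC1 and TRIB3 than HCT116. These were 5 of 10 genes called, beside 14.1% of genes tested (12.8% in the second table), and the median log2FC of the 10 was 0.31 beside -0.027 over genes with at least 10 counts. With a |log2FC| above 1 asked for as well, 3 of 10 passed beside 7.24% of genes, and under oxaliplatin, E1A and E1A + oxaliplatin 2, 1 and 1 passed beside 14.8%, 6.76% and 9.65%. PHGDH was 2.23-fold higher, at 363.5 to 401 CPM against 169 to 174 CPM in HCT116, with log2FC 1.16 ± 0.20 (adjusted p = 8.38e-05). ASNS was 2.03-fold higher (1.02 ± 0.24, adjusted p = 0.0033), at 202 to 269 CPM against 83.9 to 139 CPM. PSAT1 was 1.66-fold higher (0.73 ± 0.18, adjusted p = 0.00548), at 372 to 406 CPM against 207 to 254 CPM. None of these 3 enzymes overlapped between the lines, and the call of ASNS was lost without HCT116 control replicate 3 (0.81, adjusted p = 0.0517), the sample with the lowest ASNS.

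CHAC1 was 2.24-fold lower in untreated HCT116 oxpl-R cells, at 19.8 to 23.3 CPM against 32.5 to 63.3 CPM (log2FC -1.16 ± 0.23, adjusted p = 0.000399). TRIB3 was 1.59-fold lower, at 62.5 to 69.7 CPM against 93.1 to 113 CPM (-0.67 ± 0.18, adjusted p = 0.0114), and its call was lost without HCT116 control replicate 1 (-0.60, adjusted p = 0.0585). Thus the 3 enzymes stood on one side of the parental level and CHAC1 and TRIB3 on the other. The other 5 genes were not called: ATF4 (0.42 ± 0.21, adjusted p = 0.225, although its samples did not overlap), ATF3 (-0.05 ± 0.18, adjusted p = 1), DDIT3 (0.27 ± 0.36, adjusted p = 0.72), PPP1R15A (0.35 ± 0.21, adjusted p = 0.314) and DDIT4 (-0.44 ± 0.23, adjusted p = 0.223). With only these groups in the fit, 7 genes were called, ATF4 (0.43, adjusted p = 0.0233) and PPP1R15A (0.36, adjusted p = 0.05 after rounding) being added.

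Under oxaliplatin, 5 of 10 genes were called between the lines, beside 25.6% of genes tested (25.1% in the second table). ASNS (0.99 ± 0.24, adjusted p = 0.00209) and PSAT1 (0.97 ± 0.18, adjusted p = 0.000126) were again higher in HCT116 oxpl-R, and TRIB3 (-1.33 ± 0.18, adjusted p = 1.87e-06) and CHAC1 (-0.69 ± 0.23, adjusted p = 0.0236) were again lower. The call of CHAC1 was lost without HCT116 oxaliplatin replicate 1 or HCT116 oxpl-R oxaliplatin replicate 1 or 3, with adjusted p-values up to 0.0747. It was also lost with total counts (-0.60, adjusted p = 0.0766) and with only the groups compared (-0.78, adjusted p = 0.0761). DDIT3 had the largest difference, 4.32-fold higher at 14.8 to 17.2 CPM against 3.00 to 4.32 CPM (log2FC 2.11 ± 0.38, adjusted p = 6.66e-05), and was 1.91 without both libraries that stood apart. The other calls without them were ASNS (0.87, adjusted p = 0.00509), PSAT1 (0.73, adjusted p = 0.000891), TRIB3 (-1.36, adjusted p = 3.69e-07) and CHAC1 (-0.77, adjusted p = 0.0136). PHGDH, which was 2.23-fold higher without treatment, now overlapped between the lines (-0.12 ± 0.20, adjusted p = 0.779), although without HCT116 oxpl-R oxaliplatin replicate 1, its highest sample there, the value was -0.54 (adjusted p = 0.0122). ATF3 was not called (0.32 ± 0.18, adjusted p = 0.23) but passed with all genes from the second table (0.54, adjusted p = 0.0421). It passed with limma on that table too (0.53, adjusted p = 0.0449 and 0.0454 at pseudocounts of 1 and 0.1). The labels do not say whether same-numbered samples of the lines were paired, but in this comparison they deviated weakly together (r = 0.131, 0.191 and 0.247). Adding the replicate number as a block to the fit of all 24 samples left the count of called genes at 5.

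With E1A, 5 of 10 genes were called between the lines, beside 14.4% of genes tested (12.2% in the second table), and with E1A + oxaliplatin 4 of 10, beside 19.3% (18% in the second table). CHAC1 was lower in HCT116 oxpl-R in both (-1.82 ± 0.23, adjusted p = 8.62e-07, and -0.64 ± 0.23, adjusted p = 0.0462), as was TRIB3 (-0.74 ± 0.18, adjusted p = 0.00568, and -0.77 ± 0.18, adjusted p = 0.00261). PSAT1 was higher in both (0.57 ± 0.18, adjusted p = 0.0322, and 0.73 ± 0.18, adjusted p = 0.00423). ASNS and PHGDH passed with E1A (0.80 ± 0.24, adjusted p = 0.0215, and 1.00 ± 0.20, adjusted p = 0.00059) and not with E1A + oxaliplatin (0.59 ± 0.24, adjusted p = 0.0872, and 0.15 ± 0.20, adjusted p = 0.696). DDIT3 passed with E1A + oxaliplatin (1.62 ± 0.37, adjusted p = 0.00176) and not with E1A (0.74 ± 0.37, adjusted p = 0.207). In the E1A + oxaliplatin samples DDIT3 stood at 1.86, 7.38 and 7.08 CPM in HCT116 and at 12.7, 18.3 and 19.1 CPM in HCT116 oxpl-R, the lowest value being that of replicate 1, which stood apart. Without both libraries that stood apart, the E1A + oxaliplatin difference was 1.21 for DDIT3 (adjusted p = 0.00957), and CHAC1 was no longer called (-0.51, adjusted p = 0.171). TRIB3 (-0.56, adjusted p = 0.025) and PSAT1 (0.57, adjusted p = 0.0136) still passed, while ASNS stood at 0.33 (adjusted p = 0.425).

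In the main fit, TRIB3, CHAC1 and PSAT1 were called in all 4 comparisons of the lines, which shared no samples with each other. The smaller of these calls rested on single samples. With E1A, the call of PSAT1 was lost without any HCT116 replicate or HCT116 oxpl-R replicate 2 (0.46 to 0.63, adjusted p up to 0.144), and that of ASNS without HCT116 replicate 1 or 2 or HCT116 oxpl-R replicate 2 or 3 (0.58 to 0.80, adjusted p up to 0.139). Without HCT116 oxpl-R E1A replicate 1, DDIT3 (1.08, adjusted p = 0.0386) and DDIT4 (-0.90, adjusted p = 0.00972) were called too. With E1A + oxaliplatin, CHAC1 lost its call without HCT116 replicate 1 or HCT116 oxpl-R replicate 1 or 2 (-0.64 to -0.51, adjusted p up to 0.197), and DDIT4 gained one without HCT116 replicate 3 (-0.77, adjusted p = 0.0221). With the 9 members other than TRIB3 read from the second table, 0 were lower with E1A + oxaliplatin, so CHAC1 was not called there either.

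Ordered by mean over the 8 groups, CHAC1 had the widest range of the 10 genes, 9.71-fold, from 55.1 CPM (HCT116, E1A) to 5.68 CPM (HCT116 oxpl-R, E1A + oxaliplatin). Its control and E1A groups in HCT116 overlapped and stood apart from all others. ASNS ranged 5.46-fold, from 244 CPM (HCT116 oxpl-R, control) to 44.7 CPM (HCT116, oxaliplatin), with every pair of neighbours overlapping. PSAT1 had the same ends (392 and 107 CPM, 3.65-fold), and its order broke below the control and E1A groups of HCT116 oxpl-R and again above the oxaliplatin and E1A + oxaliplatin groups of HCT116. PHGDH broke once, with the control and E1A groups of HCT116 oxpl-R (383 and 392 CPM) above the other 6, whose means lay between 149 and 196 CPM. DDIT3 broke once as well, with the oxaliplatin (16.1 CPM) and E1A + oxaliplatin (16.7 CPM) groups of HCT116 oxpl-R above the other 6 (3.72 to 9.41 CPM). TRIB3 had the 4 HCT116 groups on top (99.9 to 117 CPM) and the oxaliplatin group of HCT116 oxpl-R alone at the bottom (43.4 CPM). For DDIT4 (209 to 86.3 CPM) and PPP1R15A (94.4 to 46.8 CPM), all neighbours in the order overlapped.

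**Figure D3:**
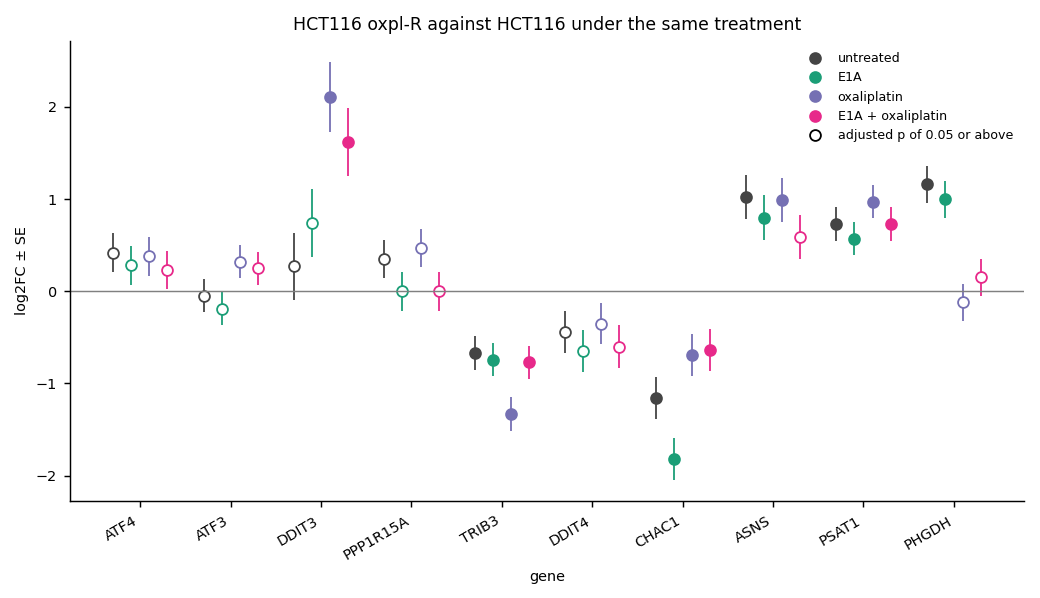
log2FC of HCT116 oxpl-R against HCT116 (points, with standard errors as bars) for the 10 genes under each of the 4 treatments, shown by colour; filled points passed an adjusted p of 0.05. TRIB3 and CHAC1 are below 0 and PSAT1 above 0 with filled points throughout, and DDIT3 is highest in the treatments with oxaliplatin (2.11 and 1.62).

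Doxycycline, added to induce E1A, called 0 of the 10 genes in any of 4 comparisons by edgeR's quasi-likelihood test. Beside this, 0.432% of genes tested were called for E1A in HCT116, 0.226% in HCT116 oxpl-R, and 0.0874% and 1.39% when E1A was added to oxaliplatin in HCT116 and in HCT116 oxpl-R. At an unadjusted p below 0.05 there were 3, 4, 2 and 2 of the 10 genes, in that order, DESeq2 called 1 (ATF3 in HCT116, log2FC 0.62, adjusted p = 0.0412) and limma on log2(value + 1) called 0. With only the groups compared in the fit, 3 genes were called for E1A in HCT116, namely ATF3 (0.60, adjusted p = 0.00253), DDIT3 (-0.90, adjusted p = 0.0135) and DDIT4 (-0.55, adjusted p = 0.00394).

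ATF3 was at 41.2, 41.4 and 41.5 CPM with E1A in HCT116, above all controls (24.6 to 28.3 CPM). Its log2FC was 0.64 ± 0.18 (adjusted p = 0.179) there, 0.49 ± 0.18 (adjusted p = 0.652) in HCT116 oxpl-R, 0.40 ± 0.18 (adjusted p = 1) on top of oxaliplatin in HCT116 and 0.33 ± 0.18 (adjusted p = 0.646) on top of oxaliplatin in HCT116 oxpl-R. Over the alternatives of the first comparison its adjusted p ran from 0.00253 to 0.594. DDIT4 went from 181 to 238 CPM in HCT116 controls to 131, 151 and 159.5 CPM with E1A, and from 107 to 198 CPM to 124, 88.1 and 70.1 CPM in HCT116 oxpl-R. These samples did not overlap in the first line and overlapped in the second, with log2FC -0.51 ± 0.23 (adjusted p = 0.701) and -0.71 ± 0.23 (adjusted p = 0.392). On top of oxaliplatin, DDIT4 had -0.47 ± 0.23 (adjusted p = 1) in HCT116 and -0.72 ± 0.23 (adjusted p = 0.136) in HCT116 oxpl-R. In the last of these, leaving out HCT116 oxpl-R oxaliplatin replicate 3 brought the adjusted p to 0.0149 (-0.96), and PHGDH was called there without HCT116 oxpl-R oxaliplatin replicate 1 (0.74, adjusted p = 0.0119). The comparisons with E1A shared no samples with those on top of oxaliplatin. Without both libraries that stood apart, 0 genes were called for E1A on top of oxaliplatin in HCT116 (ATF3 0.28, adjusted p = 0.746, and DDIT4 -0.74, adjusted p = 0.429). The interaction of line and E1A, and those of E1A and oxaliplatin in each line, called 0 of the 10 genes, beside 0.0103%, 0.0103% and 0.036% of genes tested. At an unadjusted p below 0.05 they held 1, 1 and 0 of the genes, and DESeq2 and limma called 0.

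Further genes of the pathway were described from lists by role. Their counts are to be read beside the shares of all genes called after oxaliplatin, 8.74% higher and 8.61% lower in HCT116 and 3.1% and 3.01% in HCT116 oxpl-R. Of 18 genes for eIF2 kinases, eIF2 and eIF2B subunits and their regulators, 8 were lower and 0 higher after oxaliplatin in HCT116 (median log2FC -0.65). They included OMA1, a mitochondrial protease that relays mitochondrial stress to the response (-1.65 ± 0.38, adjusted p = 0.00278), EIF2S2, which encodes the beta subunit of eIF2 (-1.26 ± 0.20, adjusted p = 5.1e-05), and DNAJC3, an inhibitor of eIF2 kinases (-1.12 ± 0.29, adjusted p = 0.00758). In HCT116 oxpl-R, 0 of the 18 were called by edgeR (median -0.03), with 4 at an unadjusted p below 0.05, 1 by DESeq2 and 0 by limma. Tested by interaction, OMA1 alone differed between the lines (1.88 ± 0.52, adjusted p = 0.0449), with 8 of the 18 at an unadjusted p below 0.05, 2 called by DESeq2 and 0 by limma. Of 9 partner transcription factors, 2 were higher and 2 lower in HCT116 and 0 and 2 in HCT116 oxpl-R. CEBPG, a dimer partner of ATF4, fell in HCT116 (-0.94 ± 0.21, adjusted p = 0.00277) and stood at -0.58 ± 0.21 (adjusted p = 0.113) in HCT116 oxpl-R. ATF5, a relative of ATF4, fell in HCT116 oxpl-R (-1.01 ± 0.20, adjusted p = 0.000766) and stood at -0.20 ± 0.19 (adjusted p = 0.568) in HCT116.

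Of 9 amino acid transporters measured, 4 fell in HCT116 (median -0.41) and 7 in HCT116 oxpl-R (median -0.96), with 0 higher in either line. They come from the second table, where 7.15% of genes were lower and 9.25% higher in HCT116 and 3.01% and 2.79% in HCT116 oxpl-R. SLC7A11, the cystine importer, went from 21.2 to 4.6 CPM on average in HCT116 (-2.19 ± 0.40, adjusted p = 0.000371) and from 59.5 to 17.5 CPM in HCT116 oxpl-R (-1.77 ± 0.39, adjusted p = 0.00387). SLC38A2, a carrier of small neutral amino acids, fell in HCT116 (-1.28 ± 0.26, adjusted p = 0.000911; -0.07 ± 0.25, adjusted p = 1, in HCT116 oxpl-R), and SLC1A4, a carrier of alanine and serine, fell in HCT116 oxpl-R (-1.66 ± 0.24, adjusted p = 1.94e-05; 0.03 ± 0.23, adjusted p = 1, in HCT116). The interaction, called for 3.64% of genes in that table, was called for SLC1A4 (-1.69 ± 0.33, adjusted p = 0.00289) and SLC1A5, a glutamine carrier (-0.93 ± 0.22, adjusted p = 0.0125). Of 12 further enzymes of amino acid and one-carbon metabolism, 1 was higher and 3 lower in HCT116, and 1 was higher and 4 lower in HCT116 oxpl-R. MTHFD2, of mitochondrial folate metabolism, fell by 0.92 and 0.91 on the log2 scale (SE 0.18 in each, adjusted p = 0.000628 and 0.000973). PCK2, a mitochondrial enzyme of gluconeogenesis, fell in HCT116 oxpl-R (-1.43 ± 0.19, adjusted p = 2.43e-06), more than in HCT116 (interaction -1.06 ± 0.26, adjusted p = 0.0214). CBS, which makes cystathionine, rose in both lines from low levels, 0.26 to 0.80 CPM and 0.288 to 6.75 CPM on average (1.59 ± 0.51, adjusted p = 0.0273, and 4.55 ± 0.50, adjusted p = 1.09e-07).

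Aminoacyl-tRNA synthetases, of which 17 of 20 listed were measured, were lower in 8 cases and higher in 1 in HCT116 (median -1.02), and lower in 3 and higher in 1 in HCT116 oxpl-R (median -0.26). GARS1, which charges glycine, fell in both lines (-1.18 ± 0.19, adjusted p = 7.37e-05, and -0.80 ± 0.19, adjusted p = 0.00694). Chaperones and other genes of the endoplasmic reticulum were lower in 9 of 17 cases in HCT116 (median -0.61), with 0 higher. HSP90B1 (-1.48 ± 0.27, adjusted p = 0.000302) and HSPA5, which encodes BiP (-1.14 ± 0.18, adjusted p = 4.99e-05), led them. For HCT116 oxpl-R, 0 of the 17 were called by edgeR, DESeq2 or limma, and 0 had an unadjusted p below 0.05 (median -0.02). The interaction was called for HSPA5 (1.38 ± 0.25, adjusted p = 0.00142) and PDIA6, a disulfide isomerase (0.78 ± 0.21, adjusted p = 0.036). Of the 17, 10 had an unadjusted p below 0.05, and DESeq2 called 6 and limma 3.

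Of 16 stress outputs measured, some of them shared with the p53 pathway, 7 were higher and 4 lower in HCT116, and 5 higher and 1 lower in HCT116 oxpl-R. GDF15, a secreted stress cytokine, went from 61.1 to 468 CPM on average in HCT116 (log2FC 2.94 ± 0.23, adjusted p = 5.11e-10) and from 435 to 1753 CPM in HCT116 oxpl-R (2.01 ± 0.22, adjusted p = 1.29e-07). BBC3, which encodes the death effector PUMA, rose in HCT116 (2.24 ± 0.21, adjusted p = 1.12e-08) and in HCT116 oxpl-R (1.03 ± 0.20, adjusted p = 0.000987), and by less in the latter (interaction -1.21 ± 0.29, adjusted p = 0.016). TNFRSF10B, a death receptor, rose in both as well (0.77 ± 0.15, adjusted p = 0.000672, and 1.12 ± 0.15, adjusted p = 5e-06). Some epithelial markers rose: 5 of 9 were higher in HCT116 and 4 of 9 in HCT116 oxpl-R, beside 8.74% and 3.1% of genes in the count table. KRT19 rose by 0.97 ± 0.21 (adjusted p = 0.0013) and 1.17 ± 0.21 (adjusted p = 0.000223). In each line 3 of the 9 had a log2FC below 0, and the median of the 9 was 0.58 in HCT116 and 0.23 in HCT116 oxpl-R. E2F targets fell in part, with 7 of 20 lower in HCT116 and 17 of 20 in HCT116 oxpl-R, beside 8.61% and 3.01% of genes. With single samples left out, these counts were 2 to 6 and 16 to 17. Of the 9 markers of other cell types, 0 and 1 were called, beside 17.4% and 6.11% of genes. The part of these lists in the results was not tested. Without both libraries that stood apart, the genes lower in HCT116 numbered 10 of the eIF2 list, 3 partner factors, 2 enzymes, 4 transporters, 10 synthetases, 9 of the endoplasmic reticulum and 5 stress outputs, and 8 stress outputs were higher. The interaction then held 5 higher eIF2 genes and 6 higher endoplasmic reticulum genes. The share of all genes called in this fit is not given here, so the changed counts are not a result about the lists.

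**Figure D4:**
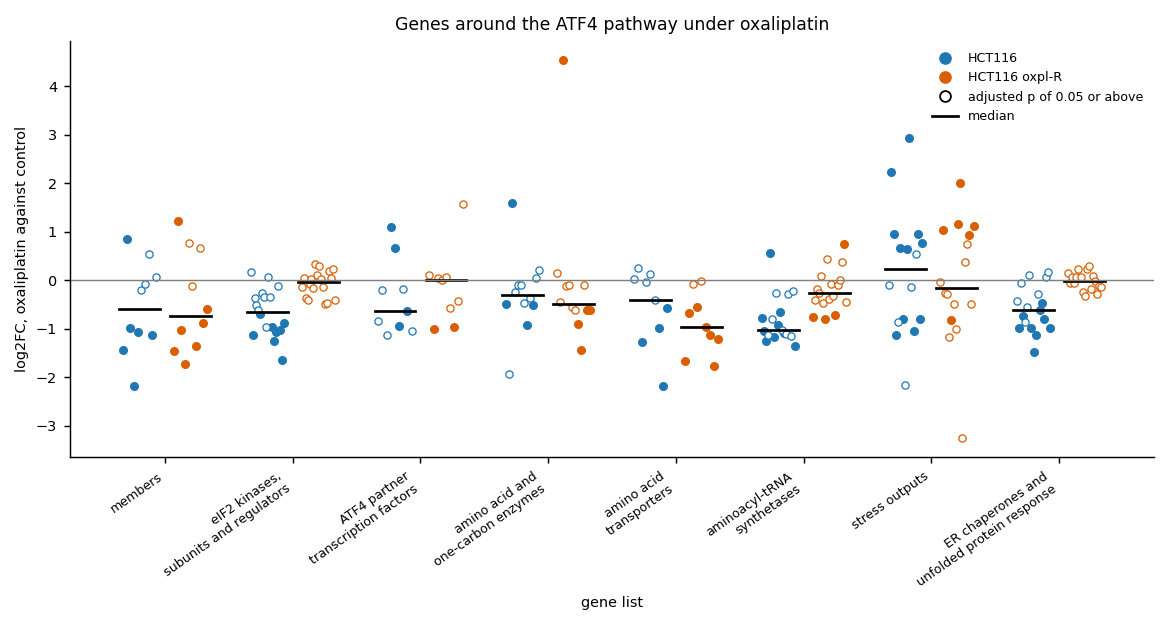
log2FC of oxaliplatin against control for each gene (points) of the 10 members and of 7 lists around the ATF4 pathway, in HCT116 (blue) and HCT116 oxpl-R (orange); filled points passed an adjusted p of 0.05 and black bars are medians. The eIF2 and endoplasmic reticulum lists have medians of -0.65 and -0.61 in HCT116 and of -0.03 and -0.02 in HCT116 oxpl-R, while the transporters have -0.41 and -0.96.

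The patterns of the 10 genes over the 24 samples did not form 1 block. As a description over libraries that share lines and treatments, ASNS and PSAT1 had r = 0.94, ATF4 and PSAT1 0.90, and ATF4 and ASNS 0.85. ATF4 and ATF3 had -0.63, and DDIT3 and TRIB3 had -0.82. Taken as deviations from the group means, these 5 pairs had r = 0.49, 0.63, 0.22, 0.52 and -0.56 in the same order, so that ATF4 and ATF3 changed sign. Among all genes with at least 10 counts on average, the pattern most like that of PSAT1 was RPL10A (r = 0.965), that of ASNS was PSAT1 (0.939), and that of ATF4 was RPL10A (0.927). For PHGDH it was PCK2 (0.890), for CHAC1 LHPP (0.936), for ATF3 PMEPA1 (0.928) and for PPP1R15A EML2 (0.907). DDIT3 had KANSL2 (0.938), DDIT4 had MYC (0.874), and TRIB3, in the second table, had NPW (0.960). ASNS, PSAT1 and ATF4 thus had another member among their 5 nearest genes, and the other 7 did not.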

How the data were processed

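RNA of HCT116 and HCT116 oxpl-R cells was sequenced in 8 groups of 3 samples. The authors trimmed the reads with Trimmomatic, quantified them with Salmon 1.6.0 on GRCh38 GENCODE transcripts, summed them per gene with tximport and deposited estimated counts without normalization. Values that were not whole made up 15.93% to 30.39% of each sample and were rounded. The count table holds 33113 genes in alphabetical order. A second deposited table of 37967 genes is named as TPM, but its columns sum to 28004261 to 42613322, so it was read as length-scaled estimated counts; it was used for TRIB3, other genes after SETP6 and alternatives. The last line of each table breaks off and was left out.

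The main test was edgeR 4.0.16 in R 4.3.3 (TMM, quasi-likelihood test over the 8 groups, genes with any count), and standard errors were derived from the F statistic. Alternatives used DESeq2 1.42.0, limma 3.58.1 with pseudocounts of 1 and 0.1 on the second table, other scalings, filterByExpr, only the groups compared, the replicate number as a block, a |log2FC| above 1, and each sample left out. The fit without both libraries that stood apart was chosen after seeing the data. The tests were tested on simulated data first. Tables and plots were made in Python 3.11.15 with pandas 2.3.3, numpy 2.4.6 and matplotlib 3.10.9. Intervals are at 95%.

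The members and lists were chosen with earlier results of these data known. Named genes are the 10 members, at most the 3 called genes with the largest |log2FC| and at least 10 counts on average per list and comparison, and the 5 genes with the highest Pearson correlation of log2(CPM + 1) for each member; the text gives a part of these, and MARS1 because it shares the locus of DDIT3. Samples with the same number deviated together in the comparison of the lines under oxaliplatin (correlations of 0.131, 0.191 and 0.247); in no other comparison of 2 groups were all 3 above 0.1. The p-values measure the spread between these samples.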

Additional observations from a re-analysis of the deposited data

Results flagged for a closer look

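The response to oxaliplatin differed between the lines for 2 of the 10 genes by the interaction term of edgeR's quasi-likelihood test. The log2FC of DDIT3 in HCT116 oxpl-R exceeded that in HCT116 by 1.84 (adjusted p = 0.0484, called under 9 of 23 alternatives, over which the adjusted p ran from 0.0112 to 0.128). DDIT3 was lower in 3 of 3 oxaliplatin samples than in all controls in HCT116 and higher in 3 of 3 in HCT116 oxpl-R. For PHGDH the difference was -1.28 (adjusted p = 0.00808, called under all 23 alternatives, over which the value ran from -1.69 to -1.11).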

How the results depend on the processing

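In the oxaliplatin comparisons, CHAC1, ASNS, PSAT1, ATF4 and ATF3 kept their direction and call in both lines under every alternative run other than a required |log2FC| above 1. For the counts of members called, a |log2FC| above 1 left 3, 2, 1 and 1 genes in the comparisons of the lines without treatment, with oxaliplatin, with E1A and with E1A + oxaliplatin, in place of 5, 5, 5 and 4. E1A in HCT116 gave 1 gene with DESeq2 and 3 with only the groups compared, in place of 0. The interaction of line and oxaliplatin gave 1 gene with filterByExpr and with limma at either pseudocount, in place of 2. Leaving out single samples gave 0 to 1 genes for E1A added to oxaliplatin in HCT116 oxpl-R, 3 to 7 for the lines with E1A (3 without HCT116 E1A replicate 1 or 2 or HCT116 oxpl-R E1A replicate 2) and 1 to 2 for the interaction, where each sample except HCT116 control replicate 3 ended the call of DDIT3. TRIB3 in HCT116 oxpl-R with oxaliplatin lost its call under RLE (-0.58, adjusted p = 0.0726), total-count (-0.55, 0.128) and upper quartile scaling (-0.54, 0.141) and with only the groups compared (-0.59, 0.125), and was -0.71 to -0.43 without single samples; between the untreated lines it was -0.74 to -0.60. DDIT3 with oxaliplatin in HCT116 kept its call under 5 of 17 alternatives.

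Values near 0 changed sign. ATF3 between the untreated lines was 0.04 under upper quartile scaling and -0.14 to 0.11 without single samples. TRIB3 with oxaliplatin in HCT116 was -0.01 with total counts and -0.01 to 0.13 without single samples. PHGDH with oxaliplatin in HCT116 was 0.00 under RLE scaling and DESeq2, 0.12 under upper quartile scaling, 0.07 without both libraries that stood apart, and -0.08 to 0.02 without single samples. DDIT4 with oxaliplatin in HCT116 oxpl-R was -0.35 to 0.12, and PHGDH between the lines under oxaliplatin -0.54 to 0.04. The cause was not tested. Upper quartile scaling moved the median log2FC of genes with at least 10 counts in the oxaliplatin comparison in HCT116 from -0.089 to 0.109.

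With the replicate number as a block, 7 members were called for oxaliplatin in HCT116 and 8 in HCT116 oxpl-R, PPP1R15A being gained in each. With E1A and with E1A + oxaliplatin, 6 and 5 were called between the lines, with DDIT4 gained, and the block changed no call in the comparison of the lines under oxaliplatin. In the other comparisons same-numbered samples did not meet the rule for pairing, although replicates 2 and 3 deviated together for oxaliplatin (r = 0.465 and 0.552) and for E1A (0.502 and 0.673) in HCT116 oxpl-R. List counts moved more: over the alternatives other than single samples left out, tRNA synthetases lower in HCT116 ran from 5 to 13 (8 in the report), with 13 under the block, partner factors higher from 1 to 2 (2) and lower from 1 to 4 (2), enzymes lower from 1 to 4 (3) and higher from 0 to 1 (1). In HCT116 oxpl-R, synthetases lower ran from 0 to 4 (3), transporters lower from 4 to 7 (7) and enzymes lower from 2 to 6 (4). For the interaction, eIF2 genes higher ran from 0 to 5 (1), endoplasmic reticulum genes from 1 to 6 (2) and transporters lower from 1 to 3 (2). With single samples left out, the synthetases ran from 5 to 9 in HCT116 and the endoplasmic reticulum genes from 1 to 6 in the interaction. E2F targets lower in HCT116 (7 in the report) ran from 4 to 10 over the other alternatives and from 2 to 6 without single samples. For eIF2 genes lower there (8) the ranges were 7 to 10 and 6 to 10. Endoplasmic reticulum genes lower there (9) had 6 to 11 and 6 to 9. With 3 samples a group, and 53 to 719 counts a sample for DDIT3, small differences were not detectable.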

Other observations

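Single further genes of the pathway lists separated the lines and do not stand for their lists. Of all genes tested, 14.1% were called without treatment, 25.6% with oxaliplatin, 14.4% with E1A and 19.3% with both. The second table, the source of SLC7A11, had 12.8%, 25.1%, 12.2% and 18%. Under oxaliplatin, 1 of 9 transporters was higher in HCT116 oxpl-R and 5 were lower. Of 18 eIF2 genes, 6 were higher and 2 lower. Without treatment the transporters had 1 and 2, and the eIF2 genes 1 and 5. CTH, the enzyme that releases cysteine from cystathionine, had a mean of 12.7 CPM in untreated HCT116 and 61.5 CPM in untreated HCT116 oxpl-R (log2FC 2.27 ± 0.22, adjusted p = 4.09e-09 by edgeR's quasi-likelihood test). With oxaliplatin, E1A and E1A + oxaliplatin it was higher in HCT116 oxpl-R by 2.41 ± 0.22 (adjusted p = 9.27e-10), 2.00 ± 0.22 (adjusted p = 6.66e-08) and 2.07 ± 0.22 (adjusted p = 3e-08). SLC7A11, the cystine importer, was higher in untreated HCT116 oxpl-R (1.49 ± 0.39, adjusted p = 0.00878), with oxaliplatin (1.92 ± 0.40, adjusted p = 0.000472) and with E1A + oxaliplatin (1.65 ± 0.40, adjusted p = 0.00361), and stood at 1.12 ± 0.38 (adjusted p = 0.054) with E1A. EIF2S1, the eIF2 subunit that the stress kinases phosphorylate, was lower in untreated HCT116 oxpl-R, at 58.2 against 176.5 CPM on average (-1.60 ± 0.22, adjusted p = 2.51e-06), and also with oxaliplatin (-0.76 ± 0.21, adjusted p = 0.00743), E1A (-1.33 ± 0.22, adjusted p = 5.39e-05) and both (-1.19 ± 0.22, adjusted p = 0.000144). GDF15 was higher in HCT116 oxpl-R without treatment (2.83 ± 0.23, adjusted p = 1.18e-10), with oxaliplatin (1.90 ± 0.22, adjusted p = 8.7e-08), with E1A (2.23 ± 0.23, adjusted p = 1.47e-08) and with both (1.83 ± 0.22, adjusted p = 3.51e-07).

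By edgeR, SLC1A4 was the 1 gene of the 7 lists that was called when E1A was added to oxaliplatin in HCT116 oxpl-R, rising from 3.66 to 10.00 CPM on average (1.45 ± 0.24, adjusted p = 0.000516). DESeq2 called 1 transporter, 2 tRNA synthetases, 1 stress output and 1 endoplasmic reticulum gene there, and limma 1 transporter and 2 synthetases. Beside this, 1.39% of genes in the count table were called by edgeR. The share in the second table, the source of SLC1A4, is not given here. These counts are therefore not a result about the lists.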
